A study of Mus musculus with 9 samples.

Results

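Photothrombotic stroke was set against sham surgery in mouse thalamus on day 7, and all 4071 genes that the authors' deposited table lists for that comparison were taken. The 4071 genes were chosen by the table and by nothing else, out of 20804 genes whose p-values had been adjusted together. The stroke group was 3 thalamus samples of wild-type C57/BL mice, labelled WT, taken on day 7 after photothrombotic stroke. The sham group was 3 thalamus samples of WT C57/BL mice, taken on day 7 after sham surgery. The labels do not say which groups received an injection, and do not state how many animals gave each sample. The series has 9 libraries, and the other 3 were not used here. The deposited table holds a mean per group in TPM (the share of all transcripts, scaled by gene length, with a fixed total per library), the log2 ratio of stroke over sham, a p-value and a q-value (an adjusted p-value) for each gene, and no value per library. Every TPM, log2 ratio and q-value below is therefore a value of the authors' deposited table, and depth and the spread between libraries are unknown. The words rose and fell are kept for genes with a q-value under 0.05, and other genes are given as listed higher or lower.

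In photothrombotic stroke a light-activated dye clots small vessels of the illuminated cortex. The thalamus lies away from that cortex but is wired to it in both directions, and its relay neurons are known to degenerate in the weeks after a cortical infarct, with microglia and astrocytes reacting around them. Microglia are the resident phagocytes of the brain, and when they take up debris they are known to turn on lysosomal, lipid-handling and complement genes.

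The tissue label was checked against markers of thalamic relay neurons. Slc17a6, the vesicular glutamate transporter of these neurons, had 20.7 TPM in stroke, against 63.7 TPM in sham (log2 ratio -1.62, q = 0.00588). The relay neuron factor Tcf7l2 had 24.0 TPM in stroke and 64.4 TPM in sham (log2 ratio -1.42, q = 0.00631), and Gbx2 had 11.1 TPM in stroke and 36.2 TPM in sham (log2 ratio -1.71, q = 0.000159). The defining relay markers were thus present in both groups, and 9 of 18 relay markers were listed, all lower, with 5 that fell. In tissue RNA, fewer cells of a type and less RNA per cell cannot be told apart.

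More genes rose than fell, and they moved further. The table lists 2469 genes higher and 1602 lower in stroke, since it was filtered by the authors at a p-value under 0.05 and a log2 ratio of at least 1 in size. Of the 20804 genes adjusted, 2012 were listed and rose, which is 9.67%, and 701 were listed and fell, which is 3.37%. By the ranks within the q-values, at least 437 further genes had a q-value under 0.05 and are not listed, so these counts are of changes of at least 2-fold. Among the 1920 genes that rose and had a sham mean above the lowest value in the table, the median log2 ratio was 2.32, or 4.997-fold. Of these, 41.9% were under 4-fold and 36.2%, or 695 genes, were over 8-fold. Among the 693 genes that fell and had a stroke mean above that lowest value, the median log2 ratio was -1.42, 84.8% were under 4-fold and 29 genes, or 4.18%, were over 8-fold. Summed over the genes that rose, the means came to 196719 TPM in stroke and 31034 TPM in sham. Summed over the genes that fell, they came to 22588 TPM in stroke and 60987 TPM in sham. TPM values of a library add up to a fixed total, which was assumed to be 1000000. By subtraction, the genes outside the table held 739251 TPM in stroke and 829949 TPM in sham, a shift of -0.17 on the log2 scale. All ratios share it only if the unlisted genes did not change as a whole, which was not tested.

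**Figure D1:**
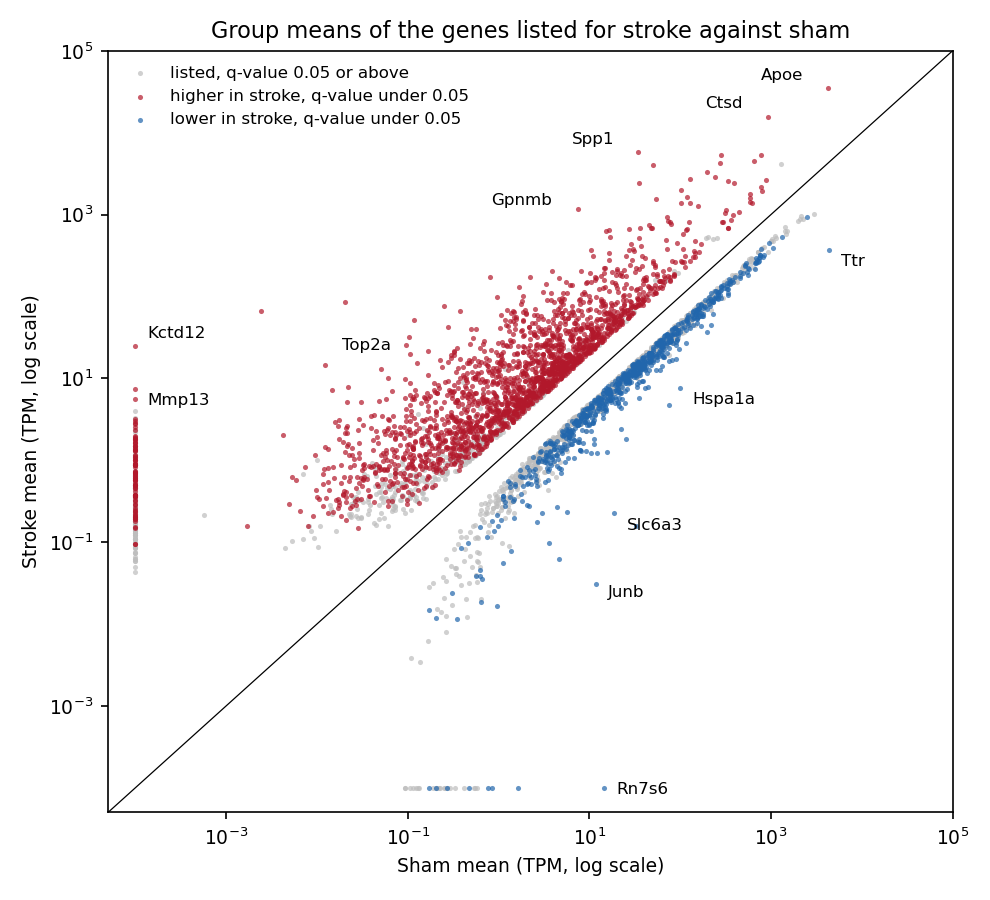
Stroke mean against sham mean of all 4071 listed genes in TPM, both axes on a log scale, with the line of equal means in black, genes that rose in red, genes that fell in blue and other listed genes in grey. The empty band along the line is the authors' filter at a log2 ratio of 1, and the rows of points at the left and bottom edges are means at 0.0001 TPM.

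Ranked by absolute difference, the gain of transcripts lay in a few very abundant genes of phagocytosis, complement and lysosomes. Apoe, the main lipid carrier protein of the brain, had 35055 TPM in stroke, against 4212 TPM in sham (log2 ratio 3.06, q = 6.15e-07). That difference alone was 18.6% of the summed gain. Ctsd, a lysosomal aspartic protease, was next with 15662 TPM in stroke and 919 TPM in sham (log2 ratio 4.09, q = 2.02e-22). Spp1, the secreted phosphoprotein osteopontin, had 5764 TPM in stroke and 34.7 TPM in sham (log2 ratio 7.38, q = 8.49e-29). The complement starter chains rose together, with C1qa at 5321 TPM in stroke and 285 TPM in sham, C1qb at 4219.6 TPM in stroke and 274 TPM in sham, and C1qc at 3264 TPM in stroke and 198 TPM in sham. Their log2 ratios lay close to each other, at 4.22, 3.94 and 4.04. Genes with broad tissue expression were also among the largest gains. Tmsb4x, which binds actin monomers, had 5394 TPM in stroke and 776 TPM in sham (log2 ratio 2.80, q = 1.38e-05). Ftl1, the light chain of the iron store ferritin, had 4565 TPM in stroke and 651 TPM in sham (log2 ratio 2.81, q = 3.54e-09). B2m, the light chain of class I histocompatibility molecules, had 2837 TPM in stroke and 242 TPM in sham (log2 ratio 3.55, q = 2.76e-08). The intermediate filament gene of astrocytes, Gfap, stood in the 14th place with 2453 TPM in stroke and 393 TPM in sham (log2 ratio 2.64, q = 1.24e-15). The 10 largest differences held 47.4% of the gain, 12 genes held 50% of it and 100 genes held 80.0%.

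**Figure D2:**
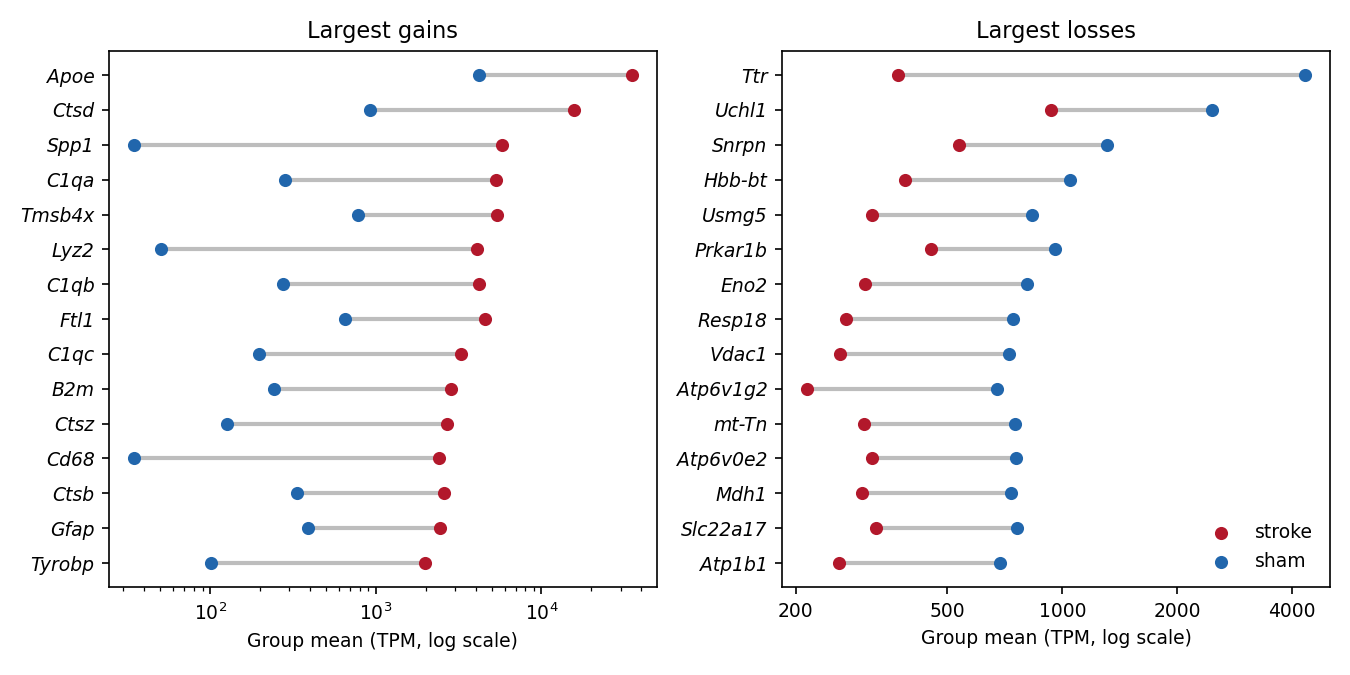
Stroke mean (red) and sham mean (blue) in TPM on a log scale for the 15 genes that gained most (left) and the 15 that lost most (right) among those with a q-value under 0.05, ordered by absolute difference. The largest gains by ratio are those of Spp1, Lyz2 and Cd68, at log2 ratios of 7.38, 6.33 and 6.10, while all losses other than that of Ttr lie between a log2 ratio of -1.08 and -1.65.

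Promoters of the genes with the 2nd and 3rd largest gain are shown because each holds a short motif known in the field for this class of genes. They are RefSeq sequences of build GRCm38.p6, 5′ to 3′ on the gene's strand, from 250 bases before to 50 bases after the annotated start. Capitals in Ctsd mark the E-box CACGTG, the core of sites known for lysosomal genes, and capitals in Spp1 mark GAGGAAGT, a site of the PU.1 type known for myeloid genes. Ctsd is at chr7:142387778-142388077 on the minus strand and Spp1 at chr5:104434861-104435160 on the plus strand.
Ctsd: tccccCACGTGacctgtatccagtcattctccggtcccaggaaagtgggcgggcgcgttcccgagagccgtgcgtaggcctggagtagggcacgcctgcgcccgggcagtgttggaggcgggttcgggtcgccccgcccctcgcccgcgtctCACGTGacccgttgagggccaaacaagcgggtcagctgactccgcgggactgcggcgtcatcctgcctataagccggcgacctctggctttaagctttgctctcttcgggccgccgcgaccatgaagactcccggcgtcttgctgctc
Spp1: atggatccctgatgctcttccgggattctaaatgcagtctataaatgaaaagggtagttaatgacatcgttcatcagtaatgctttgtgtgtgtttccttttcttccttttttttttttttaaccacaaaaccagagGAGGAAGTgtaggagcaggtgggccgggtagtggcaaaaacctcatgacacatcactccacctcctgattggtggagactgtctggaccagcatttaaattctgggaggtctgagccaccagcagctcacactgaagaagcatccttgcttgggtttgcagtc
On both strands, CACGTG was found in 8.09% of 27025 RefSeq promoters of this length, and GAGGAAGT in 3.69%. Among genes with a promoter sequence, GAGGAAGT was present in 117 of 1416 that rose (8.26%) and in 14 of 495 that fell (2.83%). None of 9 microglia markers that rose and have a promoter sequence held GAGGAAGT. A match is a description of the letters and not of binding.

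The loss of transcripts was spread over more genes. Ttr, the thyroid hormone carrier made by the choroid plexus, had 372 TPM in stroke, against 4317 TPM in sham (log2 ratio -3.54, q = 0.00115), and made up 10.3% of the summed loss. All other large losses were far smaller as ratios. Uchl1, an abundant ubiquitin hydrolase of neurons, had 936 TPM in stroke and 2469 TPM in sham (log2 ratio -1.40, q = 0.0109). Snrpn, an imprinted gene for a splicing protein of neurons, had 536 TPM in stroke and 1308 TPM in sham (log2 ratio -1.29, q = 0.0307). The 15 largest losses include Eno2, the neuronal enolase, Mdh1, the cytosolic malate dehydrogenase, Vdac1, the pore of the outer mitochondrial membrane, Usmg5, a small protein of the ATP synthase, and Atp1b1, a subunit of the sodium pump, picked out after their values were seen. Atp1b1 had 259 TPM in stroke and 688 TPM in sham (log2 ratio -1.41, q = 0.00131). Vdac1 had 262 TPM in stroke and 725 TPM in sham (log2 ratio -1.47, q = 0.00518). Atp6v1g2, a subunit of the proton pump that fills synaptic vesicles, had 214 TPM in stroke and 672 TPM in sham (log2 ratio -1.65, q = 0.041). The globin gene Hbb-bt, a marker of red cells, had 386 TPM in stroke and 1044 TPM in sham (log2 ratio -1.44, q = 0.0315), and its near-identical neighbour Hbb-bs was listed lower at 873 TPM in stroke and 2248 TPM in sham (q = 0.0817). Blood left in the vessels was not measured apart, and its part in other results was not tested. The 10 largest losses held 25.6% of the summed loss and 40 genes held 50% of it.

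Ranked by ratio, another set of genes came to the top. The 100 largest ratios and the 100 largest differences shared 6 genes among those that rose, namely Bcl2a1b, Cd68, Gpnmb, Lilrb4a, Lyz2 and Spp1, of which Lilrb4a stands on more than 1 identifier. Among those that fell they shared 5, namely Atxn7l3, Dnajb1, Enpp2, Hspa1a and Ttr. Of the 100 genes that rose most by ratio, 88 had a sham mean under 1 TPM, and their medians were 6.27 TPM in stroke and 0.0619 TPM in sham. A ratio over so low a mean is uncertain in size. Of the 100 that rose most by difference, the medians were 633 TPM in stroke and 73.1 TPM in sham.

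Genes with clone names, such as Gm with digits or Rik, were left out of the next rankings. Among other genes with both means of at least 1 TPM, Spp1 had the largest ratio. It was followed by Gpnmb, a membrane glycoprotein of lipid-laden phagocytes, with 1158 TPM in stroke and 7.58 TPM in sham (log2 ratio 7.26, q = 1.29e-33). Lyz2, the lysozyme of myeloid cells, had 4079 TPM in stroke and 50.8 TPM in sham (log2 ratio 6.33, q = 2.08e-26). The lipoprotein lipase gene Lpl had 132 TPM in stroke and 1.69 TPM in sham (log2 ratio 6.29, q = 1.01e-16). The chemokine gene Ccl3 had 171 TPM in stroke and 2.23 TPM in sham (log2 ratio 6.26, q = 2.26e-23). Ch25h, which makes 25-hydroxycholesterol, had 59.9 TPM in stroke and 1.08 TPM in sham (log2 ratio 5.80, q = 3.2e-37). These genes serve uptake and handling of lipids and debris, or signal to leukocytes.

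The largest falls by ratio, with both means of at least 1 TPM and clone names left out, were mostly of 3 kinds. The stress-inducible chaperone Hspa1b had 4.69 TPM in stroke and 74.9 TPM in sham (log2 ratio -3.999, q = 2.23e-14), and its near-identical copy Hspa1a had 7.69 TPM in stroke and 98.6 TPM in sham (log2 ratio -3.68, q = 5.06e-19). Reads of these copies may be split between them. Genes of photoreceptors and of the pineal gland fell, with Pde6g, a subunit of the phosphodiesterase of phototransduction, at 1.83 TPM in stroke and 25.5 TPM in sham (log2 ratio -3.80, q = 0.00796), and Gnb3, a G protein subunit of cones, at 2.38 TPM in stroke and 22.2 TPM in sham (log2 ratio -3.22, q = 0.0124). Channel and transport genes of the choroid plexus fell, with Kcne2 at 1.23 TPM in stroke and 12.1 TPM in sham (log2 ratio -3.30, q = 0.00826) and Kcnj13 at 1.21 TPM in stroke and 10.5 TPM in sham (log2 ratio -3.12, q = 0.00972). Outside these kinds, the protocadherin Pcdhgb4, which mediates neuronal self-recognition, had 1.25 TPM in stroke and 15.8 TPM in sham (log2 ratio -3.66, q = 0.000278). Below 1 TPM in stroke the ratios were larger still. Slc6a3, the dopamine transporter, had 0.225 TPM in stroke and 18.8 TPM in sham (log2 ratio -6.38, q = 2.2e-19), and Junb, an early response factor, had 0.0308 TPM in stroke and 11.8 TPM in sham (log2 ratio -8.58, q = 0.00544).

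Markers of some tissues outside the thalamus were lower beside these falls, and those of others were mostly not listed. Of 14 choroid plexus markers 12 were listed, all lower, with 10 that fell, and their summed means were 442 TPM in stroke and 4642 TPM in sham, most of it Ttr. Of 26 genes of the pineal gland and photoreceptors, a list chosen after values were seen, 8 were listed, all lower, with 5 that fell, and they summed to 5.37 TPM in stroke and 58.1 TPM in sham. The melatonin synthesis gene Asmt had 0.0986 TPM in stroke and 3.58 TPM in sham (log2 ratio -5.18, q = 0.00183). Of 13 markers of midbrain dopamine neurons 8 were listed, all lower, with 5 that fell, summing to 36.3 TPM in stroke and 120.2 TPM in sham. Of 20 cerebellum markers 6 were listed, all lower, and 1 fell, a share near the 3.37% that fell over all genes. The 1 that fell was Calb1, which is also on the list of inhibitory neurons. Of 14 hypothalamus markers 1 was listed, lower and not past the threshold, and of 12 markers of cortex and hippocampus 1 fell and 1 was listed higher. None of 8 habenula markers and none of 13 oligodendrocyte markers was listed. How the tissue was cut is not given in the labels used here, and the part of neighbouring tissue in these falls was not tested.

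Some genes stood at 0.0001 TPM in 1 group, the lowest value in the table, which is given where a gene was not detected. No ratio is given for them. In sham 174 listed genes were at that value, and 92 of them rose by the authors' q-value, with a median stroke mean of 0.667 TPM. Of the 92, 35 have clone names and 33 reached 1 TPM in stroke. Kctd12, an auxiliary subunit of GABA-B receptors, was listed at 24.5 TPM in stroke and at the lowest value in sham (q = 1.94e-13). Mmp13, a collagenase, was listed at 7.46 TPM in stroke (q = 2.35e-13), and Gdf3, a growth factor of the TGF beta family, at 3.02 TPM in stroke (q = 1.74e-10). H2-Q1, a class I histocompatibility gene with close copies, was listed at 2.86 TPM in stroke (q = 6.59e-13). In stroke 29 listed genes were at the lowest value, and 8 of them fell. Rn7s6, a 7S RNA gene, was listed at 14.3 TPM in sham (q = 1.74e-08), while 7S RNA genes that were measurable in both groups were listed higher, Rn7s1 with 522 TPM in stroke and 195 TPM in sham (q = 0.117) and Rn7s2 with 537 TPM in stroke and 203 TPM in sham (q = 0.103). Such a value can also be a failed estimate, and Kctd12 and Rn7s6 cannot be judged further from means.

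The balance between rises and falls differed by abundance, measured as the average of both means. Between 0.1 and 1 TPM, 379 genes rose and 38 fell, so that 90.9% of the genes past the threshold rose (95% Wilson interval 87.7 to 93.3). Between 1 and 10 TPM, 869 rose and 234 fell (78.8%), and between 10 and 100 TPM, 621 rose and 321 fell (65.9%). Between 100 and 1000 TPM the directions were nearly even, with 112 that rose and 104 that fell (51.9%, interval 45.2 to 58.4). At 1000 TPM and over, 20 rose and 2 fell (90.9%, interval 72.2 to 97.5). These intervals cover counting only, and genes are not independent replicates. Which mean sorts the genes moves the shares strongly. Between 100 and 1000 TPM the share was 73.9% when genes were sorted by the stroke mean and 28.3% by the sham mean. The median rise was smallest in the middle, 4.25-fold between 10 and 100 TPM, against 8.86-fold between 0.1 and 1 TPM and 10.03-fold at 1000 TPM and over. The gene with the largest ratio in each class shows how they differ. Col10a1, a collagen of cartilage, led between 1 and 10 TPM with 14.6 TPM in stroke and 0.0121 TPM in sham (log2 ratio 10.23, q = 1.38e-07), Gpnmb led between 100 and 1000 TPM and Spp1 at 1000 TPM and over.

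**Figure D3:**
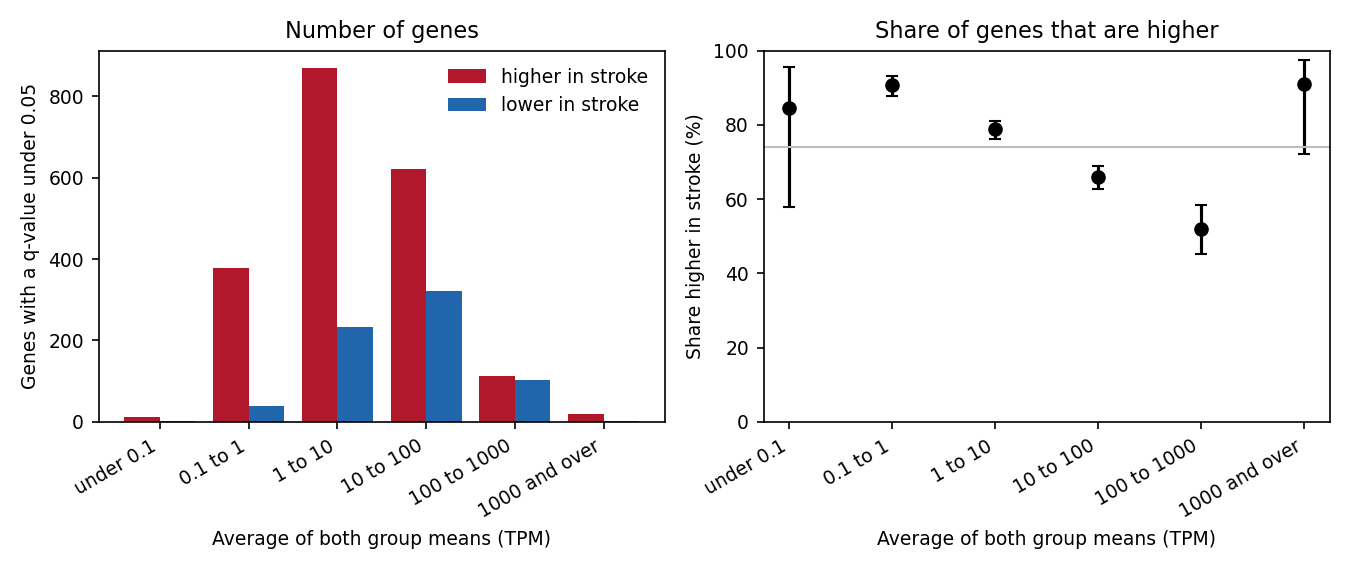
Genes with a q-value under 0.05 in 6 classes of the average of both group means in TPM. The left panel counts genes higher (red) and lower (blue) in stroke, and the right panel gives the share that is higher with its 95% Wilson interval, beside a grey line at 74.2%, the share over all classes, which dips to 51.9% between 100 and 1000 TPM.

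The lists of cell markers were chosen with earlier results of these data known, so their counts are a description. Of 313 genes in 21 marker lists for glia, neurons, vessels, blood and tissue outside the thalamus, 151 were listed. Of the 313, 84 (26.8%) rose and 37 (11.8%) fell, against 9.67% and 3.37% over all genes. The marker lists are short beside the 20804 genes, so most genes past the threshold are in none of them by construction, 1928 that rose and 664 that fell. In transcripts, the marker genes held 54.0% of the summed gain and 22.4% of the summed loss. Outside every list and family used here were 1580 genes, with 1131 that rose and 449 that fell.

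Among genes outside the marker lists and without clone names, those with the smallest q-values that rose include genes known from leukocytes and genes of more general function. Adam8, a membrane protease of leukocytes, had the smallest q-value in that set, with 89.7 TPM in stroke and 3.43 TPM in sham (log2 ratio 4.71, q = 1.72e-51). Plin2, which coats lipid droplets, had 526 TPM in stroke and 16.7 TPM in sham (log2 ratio 4.98, q = 3.3e-42), and Hk3, the hexokinase of myeloid cells, had 49.9 TPM in stroke and 1.34 TPM in sham (log2 ratio 5.22, q = 3.3e-42). Cd5l, a secreted protein of tissue macrophages, had 67.2 TPM in stroke and 0.375 TPM in sham (log2 ratio 7.49, q = 2.91e-41). C5ar1, the receptor of the complement fragment C5a, had 51.9 TPM in stroke and 1.18 TPM in sham (log2 ratio 5.45, q = 3.05e-35). Plau, the urokinase that activates plasmin, had 63.7 TPM in stroke and 1.48 TPM in sham (log2 ratio 5.43, q = 2.06e-34). Top2a, the topoisomerase of dividing cells, had 15.5 TPM in stroke and 0.127 TPM in sham (log2 ratio 6.93, q = 2.09e-34). Capg, which caps actin filaments, had 316 TPM in stroke and 10.9 TPM in sham (log2 ratio 4.86, q = 2.21e-29).

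The genes outside the marker lists and without clone names that fell with the smallest q-values were mixed in function. After Hspa1a came Atxn7l3, a subunit of the deubiquitinase module of the SAGA coactivator, with 36.6 TPM in stroke and 197 TPM in sham (log2 ratio -2.43, q = 4.66e-16). Pgbd5, a gene derived from a transposase, had 16.1 TPM in stroke and 75.4 TPM in sham (log2 ratio -2.23, q = 3.88e-12). Fbxw7, the substrate receptor of a ubiquitin ligase, had 9.05 TPM in stroke and 28.5 TPM in sham (log2 ratio -1.66, q = 2.96e-11). Ptpn4, a tyrosine phosphatase, had 4.22 TPM in stroke and 15.2 TPM in sham (log2 ratio -1.85, q = 1.45e-07). Sez6l, a neuronal membrane protein, had 16.9 TPM in stroke and 80.4 TPM in sham (log2 ratio -2.25, q = 7.2e-07). Gabra5, a subunit of GABA-A receptors, had 1.67 TPM in stroke and 7.70 TPM in sham (log2 ratio -2.20, q = 4.63e-06).

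Genes of several families of leukocyte surface receptors rose, with most of the family in the leukocyte immunoglobulin-like receptors and smaller shares in the others. Families were collected by symbol, so a few antisense genes are counted with them. The sizes of lists and families include genes that may not have been tested, while 9.67% and 3.37% are shares of the 20804 genes adjusted. Of 16 microglia markers 14 rose, summing to 3804 TPM in stroke and 399 TPM in sham over those listed. Of 16 markers of infiltrating myeloid cells 7 rose, with sums of 54.3 TPM in stroke and 8.90 TPM in sham, and of 19 lymphocyte markers 6 rose, with sums of 16.8 TPM in stroke and 2.15 TPM in sham. Which of these cells gave the receptor transcripts was not tested. The family of 21 leukocyte immunoglobulin-like receptor genes, which carry activating or inhibitory signals, had 19 identifiers listed, with Lilrb4a on more than 1 of them, and all 19 rose, with a median log2 ratio of 4.76 where a ratio could be given, against 1.27 over all listed genes. Lilr4b had 52.2 TPM in stroke and 0.118 TPM in sham (log2 ratio 8.78, q = 3.29e-25), and Pirb, an inhibitory receptor for class I molecules, had 13.5 TPM in stroke and 0.361 TPM in sham (log2 ratio 5.23, q = 1.77e-16). The family as collected also holds Cd300 and Pilr genes. Where its members are close copies, their counts may be split. Of 12 Toll-like receptor genes, sensors of microbial and cell debris, 9 rose, from Tlr13 with 15.5 TPM in stroke and 0.474 TPM in sham (log2 ratio 5.03, q = 1.88e-18) to Tlr12 with 1.24 TPM in stroke and 0.616 TPM in sham (log2 ratio 1.01, q = 0.0486). Of 31 integrin genes, receptors for matrix and for other cells, 15 identifiers were listed, all higher, and 13 rose, with Itgb2, the shared chain of leukocyte integrins, at 139 TPM in stroke and 6.04 TPM in sham (log2 ratio 4.52, q = 3.23e-27). Of 38 genes with interleukin receptor symbols, among them Il1rn, which encodes a receptor antagonist and not a receptor, 17 rose and 1 fell. The 1 that fell was Il1rapl1, a synaptic relative, with 0.364 TPM in stroke and 1.11 TPM in sham (log2 ratio -1.61, q = 0.0109). Of 33 C-type lectin genes 15 were listed, 12 rose and 1 was listed lower, and of 22 chemokine receptor genes 10 were listed, 7 rose and 1 was listed lower. Of 38 interleukin genes themselves 4 rose, a share near the 9.67% that rose over all genes. Of 40 chemokine genes 14 rose and none fell past the threshold.

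**Figure D4:**
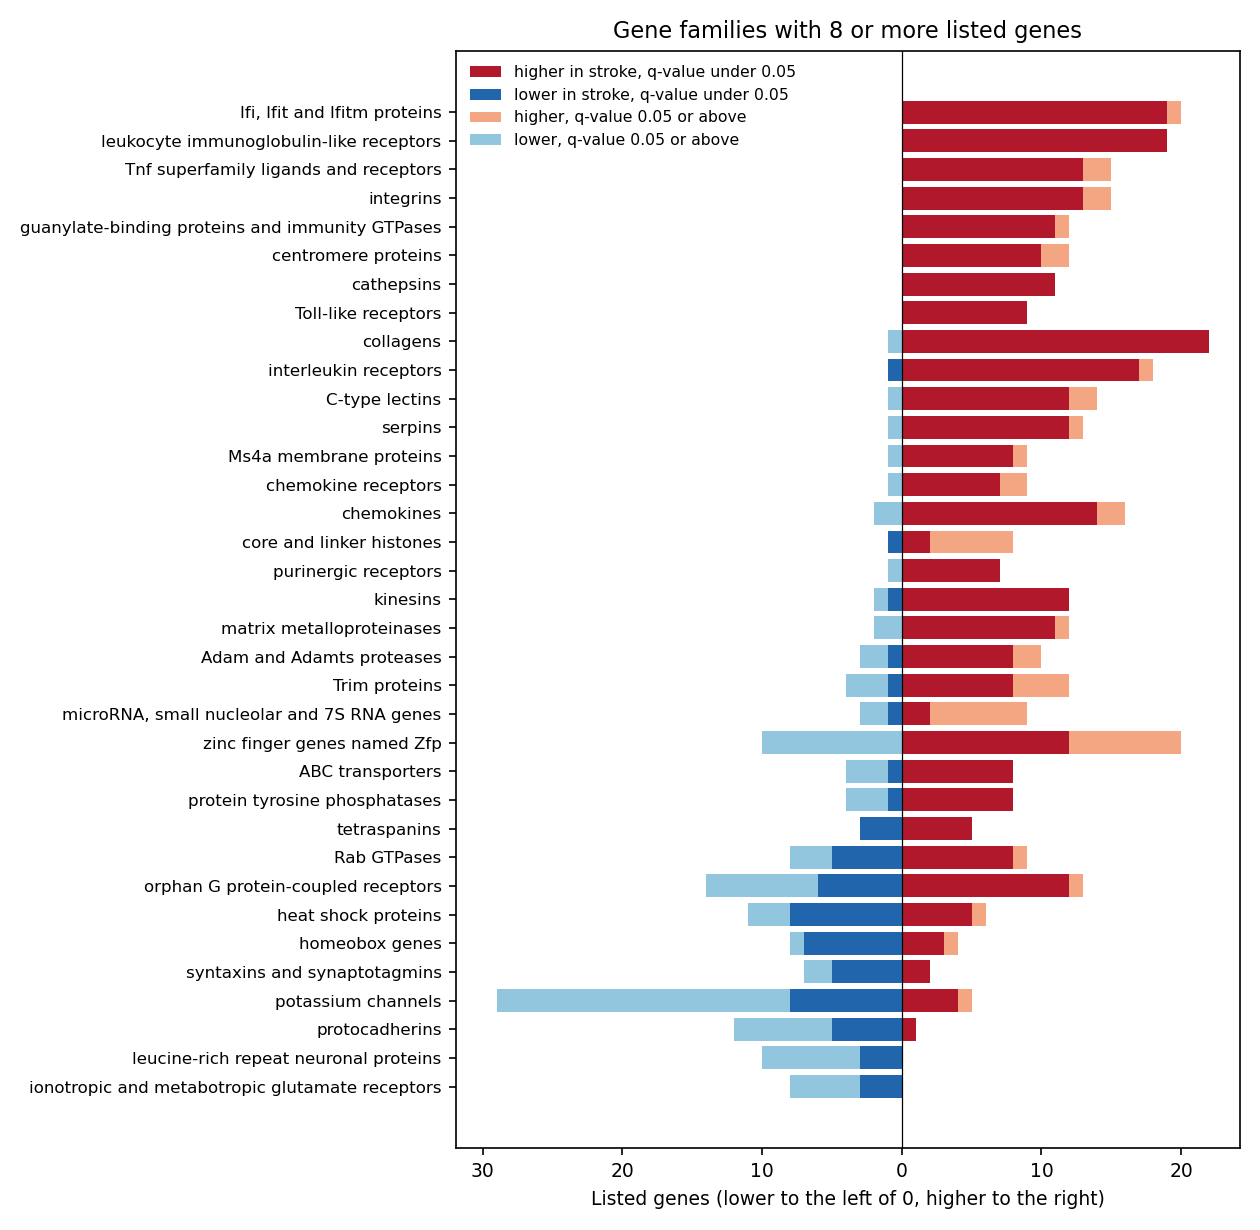
Listed genes of gene families with 8 or more of them, other than solute carriers, clone names, pseudogenes and some GTPase families, ordered by the share that is higher, with higher genes to the right of 0 (red where the q-value is under 0.05, orange otherwise) and lower genes to the left (dark blue where it is under 0.05, light blue otherwise). Leukocyte immunoglobulin-like receptors, integrins and Toll-like receptors stand wholly to the right, interleukin receptors, C-type lectins and chemokine receptors each have 1 lower gene, and glutamate receptors, neuronal leucine-rich repeat proteins, protocadherins and potassium channels stand mostly or wholly to the left at the bottom.

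Interferon-inducible families rose together. Of 33 Ifi, Ifit and Ifitm genes 20 were listed and 19 rose, of 20 guanylate-binding and immunity GTPase genes 11 rose, and of 12 Oas genes, which sense double-stranded RNA, 7 rose. Their sizes differed, with median log2 ratios of 3.30 for the Ifi, Ifit and Ifitm genes, 1.96 for the GTPases and 2.88 for the Oas genes where ratios could be given. Ifi207, of the family that binds DNA, had 6.66 TPM in stroke and 0.162 TPM in sham (log2 ratio 5.36, q = 1.21e-14). Ifit3, which restrains viral RNA, had 37.1 TPM in stroke and 11.1 TPM in sham (log2 ratio 1.75, q = 2.47e-06). Oas1a had 19.7 TPM in stroke and 2.48 TPM in sham (log2 ratio 2.99, q = 4.63e-20), and its close copy Oas1g had 5.30 TPM in stroke and 0.719 TPM in sham (log2 ratio 2.88, q = 4.06e-11). The promoters of these copies are shown because they carry the interferon-stimulated response element, searched as GAAA, any 2 bases and GAAA again, at nearly the same place. Both are on the minus strand of build GRCm38.p6, Oas1a at chr5:120907476-120907775 and Oas1g at chr5:120887564-120887863, and capitals mark overlapping matches.
Oas1a: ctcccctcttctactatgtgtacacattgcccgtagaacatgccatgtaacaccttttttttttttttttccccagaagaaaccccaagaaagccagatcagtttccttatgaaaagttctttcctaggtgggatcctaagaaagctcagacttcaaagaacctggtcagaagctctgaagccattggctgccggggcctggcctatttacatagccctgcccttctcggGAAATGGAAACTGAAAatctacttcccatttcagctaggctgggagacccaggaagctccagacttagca
Oas1g: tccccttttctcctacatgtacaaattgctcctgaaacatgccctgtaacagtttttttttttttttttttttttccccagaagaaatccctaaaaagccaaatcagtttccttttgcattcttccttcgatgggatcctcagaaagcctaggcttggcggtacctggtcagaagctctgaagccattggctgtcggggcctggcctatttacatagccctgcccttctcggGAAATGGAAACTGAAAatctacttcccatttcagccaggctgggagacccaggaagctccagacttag
On both strands, the element was found in 20 of 28 genes of these families that rose and have a promoter sequence (71.4%). It was found in 3.99% of all RefSeq promoters, in 8.33% of genes that rose and in 2.83% of genes that fell.

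Transcription factor genes moved in both directions, where 9.67% of all genes rose and 3.37% fell. Of 34 myeloid factor genes 20 were listed, all higher, and 19 rose. Spi1, which encodes PU.1, had 151 TPM in stroke and 10.4 TPM in sham (log2 ratio 3.87, q = 1.31e-17), and Irf8 had 112 TPM in stroke and 8.68 TPM in sham (log2 ratio 3.69, q = 8.18e-20). Of 43 nuclear receptor genes 7 fell and none rose past the threshold. They included Nr4a3, with 1.07 TPM in stroke and 5.75 TPM in sham (log2 ratio -2.42, q = 2.53e-09), Rora with 6.61 TPM in stroke and 22.3 TPM in sham (log2 ratio -1.76, q = 5.16e-05), and the mineralocorticoid receptor Nr3c2 with 1.64 TPM in stroke and 3.72 TPM in sham (log2 ratio -1.18, q = 0.00811). Of 21 circadian clock genes 10 were listed, all lower, and 5 fell. Among the clock outputs, Dbp had 79.7 TPM in stroke and 206 TPM in sham (log2 ratio -1.37, q = 0.0158) and Tef had 57.2 TPM in stroke and 166 TPM in sham (log2 ratio -1.53, q = 0.0338), while Per1 was listed lower with 31.3 TPM in stroke and 73.8 TPM in sham (q = 0.109). The hour at which tissue was taken is not given in the labels used here. Of 18 early response genes 5 fell and 1 rose, with Fos at 7.89 TPM in stroke and 44.7 TPM in sham (log2 ratio -2.50, q = 2.27e-06). Egr2 was the member that rose, with 2.23 TPM in stroke and 0.170 TPM in sham (log2 ratio 3.71, q = 3.64e-08). A share of 1 in 18 is below the 9.67% that rose over all genes.

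Cell division genes rose together. Of 30 spindle and chromosome segregation genes 29 were listed and all 29 rose, with a median log2 ratio of 3.16 where a ratio could be given. Of 30 DNA replication and repair genes 19 were listed higher and 18 rose, with a median log2 ratio of 1.86. Birc5, a subunit of the chromosomal passenger complex, had 50.2 TPM in stroke and 1.85 TPM in sham (log2 ratio 4.76, q = 5.16e-17). Kif2c, a kinesin that takes microtubules apart, had 5.58 TPM in stroke and 0.116 TPM in sham (log2 ratio 5.59, q = 4e-22). Mcm5, a subunit of the replicative helicase, had 23.3 TPM in stroke and 3.73 TPM in sham (log2 ratio 2.64, q = 2.88e-15), and the replication clamp Pcna had 76.9 TPM in stroke and 30.1 TPM in sham (log2 ratio 1.35, q = 0.00168). Of 42 kinesin genes 12 rose, most of them mitotic, and the axonal member Kif3c fell, with 30.6 TPM in stroke and 92.7 TPM in sham (log2 ratio -1.60, q = 0.0057). Cdc20, which activates the anaphase-promoting complex, had 14.3 TPM in stroke and 1.56 TPM in sham (log2 ratio 3.19, q = 3.49e-19), and Cenpa, the histone H3 of centromeres, had 19.8 TPM in stroke and 1.07 TPM in sham (log2 ratio 4.21, q = 5.6e-16). Their promoters are shown because both hold the cell cycle homology region TTTGAA, in capitals, near the start. Build GRCm38.p6 places Cdc20 at chr4:118437294-118437593 on the minus strand and Cenpa at chr5:30666636-30666935 on the plus strand.
Cdc20: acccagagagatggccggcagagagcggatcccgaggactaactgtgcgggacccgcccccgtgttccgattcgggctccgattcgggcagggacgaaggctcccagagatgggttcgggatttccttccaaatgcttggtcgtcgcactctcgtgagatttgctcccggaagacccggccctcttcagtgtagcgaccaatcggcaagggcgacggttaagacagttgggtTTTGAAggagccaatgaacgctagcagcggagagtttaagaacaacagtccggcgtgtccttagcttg
Cenpa: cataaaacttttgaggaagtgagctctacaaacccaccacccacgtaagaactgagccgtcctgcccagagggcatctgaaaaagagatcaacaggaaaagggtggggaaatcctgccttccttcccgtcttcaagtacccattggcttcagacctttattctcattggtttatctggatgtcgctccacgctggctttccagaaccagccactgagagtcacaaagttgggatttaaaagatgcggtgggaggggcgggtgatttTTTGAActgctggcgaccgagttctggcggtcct
TTTGAA, searched on both strands, was found in 17 of 23 spindle genes that rose and have a promoter sequence (73.9%). The letters are short and common, and 20.2% of all RefSeq promoters, 21.4% of genes that rose and 11.9% of genes that fell hold them. Of 11 replication genes with a promoter sequence, 2 held them.

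Lysosomal and lipid genes made up much of the gain. All 11 cathepsin genes that were listed, of 20, rose, among them Ctsz, with 2693 TPM in stroke and 127 TPM in sham (log2 ratio 4.40, q = 3.63e-18), and, with the smallest ratio, Ctsk, with 13.5 TPM in stroke and 5.45 TPM in sham (log2 ratio 1.31, q = 0.00306). Of 17 genes for breakdown of glycosaminoglycans 9 rose, with Hpse, the heparanase, at 15.9 TPM in stroke and 0.280 TPM in sham (log2 ratio 5.83, q = 8.53e-17). Of 18 genes of cholesterol efflux 10 rose, with Abca1, the main exporter, at 34.7 TPM in stroke and 2.43 TPM in sham (log2 ratio 3.83, q = 4.56e-08). The apolipoprotein genes beside Apoe rose too, with Apoc4 at 23.3 TPM in stroke and 0.348 TPM in sham (log2 ratio 6.06, q = 4.22e-10) and Apoc1 at 137 TPM in stroke and 19.7 TPM in sham (log2 ratio 2.80, q = 2.57e-05). The scavenger receptor Cd36 had 17.8 TPM in stroke and 0.296 TPM in sham (log2 ratio 5.91, q = 2.86e-12). In the vacuolar proton pump the subunits parted. Atp6v0d2, known from osteoclasts and macrophages, had 21.8 TPM in stroke and 0.166 TPM in sham (log2 ratio 7.04, q = 5.04e-16), while 3 other subunit genes fell, among them Atp6v1h with 42.2 TPM in stroke and 110.3 TPM in sham (log2 ratio -1.39, q = 0.0334). The E-box CACGTG shown for Ctsd was present in 9 of 34 genes of the Lysosome pathway past the threshold (26.5%), against 8.09% of all promoters.

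Genes for lipid mediators, clotting and matrix rose in shares above the 9.67% over all genes. Of 26 eicosanoid genes 10 rose and 2 fell. The prostaglandin D synthases parted, since Hpgds, the form of blood cells, had 31.3 TPM in stroke and 0.519 TPM in sham (log2 ratio 5.92, q = 4.34e-17), while Ptgds, the form of brain, was listed lower with 949.7 TPM in stroke and 2158 TPM in sham (q = 0.0854). Alox5ap, which helps leukotriene synthesis, had 102 TPM in stroke and 9.89 TPM in sham (log2 ratio 3.37, q = 3.61e-13). Of 30 genes of coagulation and fibrinolysis 13 rose and 1 fell, and the share that fell was near the 3.37% over all genes. Clotting factor F10 had 3.19 TPM in stroke and 0.0287 TPM in sham (log2 ratio 6.79, q = 4.45e-10), F7 had 7.13 TPM in stroke and 0.120 TPM in sham (log2 ratio 5.90, q = 7.2e-15), and F5, the member that fell, had 0.335 TPM in stroke and 1.47 TPM in sham (log2 ratio -2.13, q = 0.0261). Of 45 collagen genes 22 rose, with Col1a1 at 169 TPM in stroke and 4.65 TPM in sham (log2 ratio 5.19, q = 6.32e-18) and Col3a1 at 87.7 TPM in stroke and 1.80 TPM in sham (log2 ratio 5.61, q = 2.95e-18). Of 23 matrix metalloproteinase genes 11 rose, with the macrophage elastase Mmp12 at 76.6 TPM in stroke and 0.249 TPM in sham (log2 ratio 8.27, q = 2.19e-26). Markers of mural cells and fibroblasts, which make such matrix, rose for 10 of 16, and summed to 673 TPM in stroke and 81.4 TPM in sham. That list itself holds matrix genes, Col1a1 and Col3a1 among them, so it is not separate from the collagen count. Its members Rgs5, Tagln, Myh11, Kcnj8 and Vtn were not listed. Of 14 endothelial markers 1 rose, a share below the 9.67% that rose over all genes.

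Listed genes of ion channels and synaptic receptors were mostly lower, and few of each family passed the threshold. Of 99 potassium channel genes 34 were listed, 29 of them lower, but 8 fell and 4 rose past the threshold. Kcnd2, which carries transient outward current, had 3.60 TPM in stroke and 11.5 TPM in sham (log2 ratio -1.67, q = 0.000988), and Kcna2, a channel of axons, had 13.6 TPM in stroke and 35.3 TPM in sham (log2 ratio -1.38, q = 0.0118). The members that rose included Kcnn4, a calcium-gated channel of leukocytes, with 7.78 TPM in stroke and 1.23 TPM in sham (log2 ratio 2.66, q = 5.61e-09), and Kcnk6 with 16.3 TPM in stroke and 2.46 TPM in sham (log2 ratio 2.72, q = 2.36e-08). Of 28 glutamate receptor genes 8 were listed, all lower, and 3 fell. Of 21 GABA receptor genes 5 were listed, all lower, and 3 fell, among them Gabra5. Over all genes 3.37% fell. Of 29 Wnt ligand and Frizzled receptor genes 4 fell, with Wnt9a at 3.63 TPM in stroke and 14.1 TPM in sham (log2 ratio -1.96, q = 0.00462) and Wnt3 at 8.83 TPM in stroke and 24.7 TPM in sham (log2 ratio -1.49, q = 0.0427). Neuron markers summed to 2327 TPM in stroke and 5872 TPM in sham over the 7 of 17 that were listed, all lower, with 6 that fell.

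Several families held a member of leukocytes that rose and a member of neurons that fell. Among small GTPases, Rac2, the form of blood cells, had 89.3 TPM in stroke and 3.79 TPM in sham (log2 ratio 4.56, q = 3.43e-23), and Rac3, the form rich in neurons, had 41.2 TPM in stroke and 105 TPM in sham (log2 ratio -1.34, q = 0.00121). Of the actin-nucleating complex, Arpc1b had 178 TPM in stroke and 22.7 TPM in sham (log2 ratio 2.97, q = 9.29e-11), and Actr3b had 28.1 TPM in stroke and 74.5 TPM in sham (log2 ratio -1.41, q = 0.0226). Of the serotonin receptors, Htr2b, also known from microglia, had 13 TPM in stroke and 0.0502 TPM in sham (log2 ratio 8.01, q = 1.2e-18), and Htr2c, known from choroid plexus and neurons, had 3.57 TPM in stroke and 9.89 TPM in sham (log2 ratio -1.47, q = 0.0269). Of the syntaxins, Stx11 had 0.786 TPM in stroke and 0.143 TPM in sham (log2 ratio 2.46, q = 0.00178), and Stx1a, of the synaptic release machinery, had 49.6 TPM in stroke and 119 TPM in sham (log2 ratio -1.27, q = 0.00517). These examples were chosen after their values were seen.

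Heat shock genes moved in both directions. Of 86 genes of the heat shock protein family, collected by symbol, 17 were listed, and 5 rose and 8 fell. Over all genes 9.67% rose and 3.37% fell, so the share that rose was below that and the share that fell above it. Of 15 genes of the heat shock response, a list chosen after values were seen, 6 were listed and all 6 fell. Besides Hspa1a and Hspa1b, their co-chaperone Dnajb1 had 27.2 TPM in stroke and 116 TPM in sham (log2 ratio -2.10, q = 1.56e-06). The small chaperone Hspb1 had 64.3 TPM in stroke and 159.8 TPM in sham (log2 ratio -1.31, q = 0.00248). Hsph1, an exchange factor for Hsp70, had 62.8 TPM in stroke and 168 TPM in sham (log2 ratio -1.42, q = 0.0183), and Chordc1, which binds Hsp90, had 7.16 TPM in stroke and 16.5 TPM in sham (log2 ratio -1.20, q = 0.0144). Hsp90b1, the form of the endoplasmic reticulum, which answers to another signal, had 265 TPM in stroke and 104 TPM in sham (log2 ratio 1.35, q = 0.00964). Atf3, a factor of the integrated stress response, had 52.2 TPM in stroke and 7.10 TPM in sham (log2 ratio 2.88, q = 1.48e-23). None of 4 metallothionein genes was listed. The promoters of Chordc1 and Hsph1 are shown because they are the members in which the heat shock element, searched on both strands as GAA, TTC and GAA with any 2 bases after each of the first 2, was found, in capitals. Build GRCm38.p6 places Chordc1 at chr9:18292017-18292316 on the plus strand, with 3 overlapping matches, and Hsph1 at chr5:149636287-149636586 on the minus strand.
Chordc1: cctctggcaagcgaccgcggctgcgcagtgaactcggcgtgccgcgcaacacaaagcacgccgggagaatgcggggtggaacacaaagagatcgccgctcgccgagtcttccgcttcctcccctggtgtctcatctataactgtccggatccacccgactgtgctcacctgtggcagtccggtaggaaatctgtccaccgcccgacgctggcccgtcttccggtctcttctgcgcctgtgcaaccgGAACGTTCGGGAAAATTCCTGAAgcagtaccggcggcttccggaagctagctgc
Hsph1: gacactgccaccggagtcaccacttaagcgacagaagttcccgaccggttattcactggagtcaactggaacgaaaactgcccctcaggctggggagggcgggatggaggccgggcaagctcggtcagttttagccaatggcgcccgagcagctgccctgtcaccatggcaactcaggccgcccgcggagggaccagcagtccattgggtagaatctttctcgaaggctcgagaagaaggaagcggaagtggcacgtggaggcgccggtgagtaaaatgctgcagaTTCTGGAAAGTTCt
The element was found in 0.662% of all RefSeq promoters, in 0.424% of genes that rose and in 0.606% of genes that fell. The other 4 members hold no run of these letters in this window, which says nothing of the factor.

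Metabolic genes moved unevenly. Of 21 glycolysis genes 4 rose, with Hk2 at 12.1 TPM in stroke and 0.856 TPM in sham (log2 ratio 3.83, q = 3.94e-16) and the lactate exporter Slc16a3 at 60.0 TPM in stroke and 6.84 TPM in sham (log2 ratio 3.13, q = 3.47e-22). The more abundant phosphofructokinase gene Pfkm was listed lower with 221 TPM in stroke and 479 TPM in sham (q = 0.0992). Of 43 genes of respiratory complex I 5 fell and none rose, with Ndufv1 at 104 TPM in stroke and 277 TPM in sham (log2 ratio -1.41, q = 0.0129). Of 89 ribosomal protein genes 5 rose, a share below the 9.67% over all genes, and 83 were not listed. Those that rose were led in TPM by Rps24 with 2142 TPM in stroke and 773 TPM in sham (log2 ratio 1.47, q = 0.0122). Of 28 glutathione S-transferase genes 3 fell, with Gstm5 at 142 TPM in stroke and 356 TPM in sham (log2 ratio -1.33, q = 0.00251). Of 394 solute carrier genes 28 rose and 16 fell, shares near the 9.67% and 3.37% over all genes, among them Slc15a3, a peptide and histidine transporter of lysosomes, with 113 TPM in stroke and 3.11 TPM in sham (log2 ratio 5.19, q = 2.18e-28), and Slc6a11, a GABA transporter of astrocytes, with 296 TPM in stroke and 692 TPM in sham (log2 ratio -1.22, q = 0.0276).

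The table assigns KEGG pathways to 1399 of the listed genes, or 34.4%, of which 67.0% were higher, and this share is the background for the pathways. Of 241 pathways with at least 10 listed genes, 170 had more higher than lower genes, 62 had more lower than higher genes, 13 held only higher genes and 1 held only lower genes. All 42 listed genes of NF-kappa B signalling were higher and 36 rose, among them the kinase genes Btk, with 12 TPM in stroke and 0.792 TPM in sham (log2 ratio 3.92, q = 5.29e-23), and Syk, with 32.3 TPM in stroke and 2.68 TPM in sham (log2 ratio 3.59, q = 2.57e-21). All 24 listed genes of cytosolic DNA sensing were higher and 22 rose. They include Tmem173, which encodes STING, with 24.6 TPM in stroke and 4.02 TPM in sham (log2 ratio 2.61, q = 5.87e-14), and the pore-forming Gsdmd with 26.5 TPM in stroke and 3.27 TPM in sham (log2 ratio 3.02, q = 3.19e-12). All 21 listed genes of p53 signalling were higher and 18 rose, but their smallest q-values belong to cell cycle genes. Cdk1 had 11.8 TPM in stroke and 0.507 TPM in sham (log2 ratio 4.54, q = 5.81e-22), and Ccnb1 had 6.64 TPM in stroke and 0.212 TPM in sham (log2 ratio 4.97, q = 9.21e-19). Of the 29 listed genes of the complement and coagulation cascades 28 were higher, and F5 was the other one. Of 50 listed genes of the lysosome 45 rose and 2 fell.

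At the other end, 20 of 23 listed genes of the synaptic vesicle cycle were lower, with 10 that fell, and Snap25, which drives vesicle fusion, had 258 TPM in stroke and 675 TPM in sham (log2 ratio -1.39, q = 0.000278). Of 24 listed genes of oxidative phosphorylation 20 were lower and 12 fell, with Cox5a at 260.5 TPM in stroke and 682 TPM in sham (log2 ratio -1.39, q = 0.00113). The 3 that rose there included the macrophage proton pump genes Atp6v0d2 and Tcirg1, and Tcirg1 had 128 TPM in stroke and 24.2 TPM in sham (log2 ratio 2.40, q = 2.16e-12). Of 38 listed axon guidance genes 28 were lower and 12 fell, among them the ligand gene Efna5 with 1.47 TPM in stroke and 4.07 TPM in sham (log2 ratio -1.47, q = 0.00394). The 10 that were higher all rose, and among them the semaphorin receptor Nrp1 had 21.1 TPM in stroke and 4.86 TPM in sham (log2 ratio 2.12, q = 1.41e-05). Of 26 listed mTOR signalling genes 18 were lower and 12 fell, with the inhibitor Ddit4 at 54.2 TPM in stroke and 154 TPM in sham (log2 ratio -1.50, q = 0.00399) and the AMP-activated kinase subunit Prkaa2 at 0.992 TPM in stroke and 2.75 TPM in sham (log2 ratio -1.47, q = 0.00195). Eif4ebp1, a brake on translation, rose there, with 26.2 TPM in stroke and 4.6 TPM in sham (log2 ratio 2.51, q = 1.58e-12). Pathways share genes, so these counts are not independent.

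**Figure D5:**
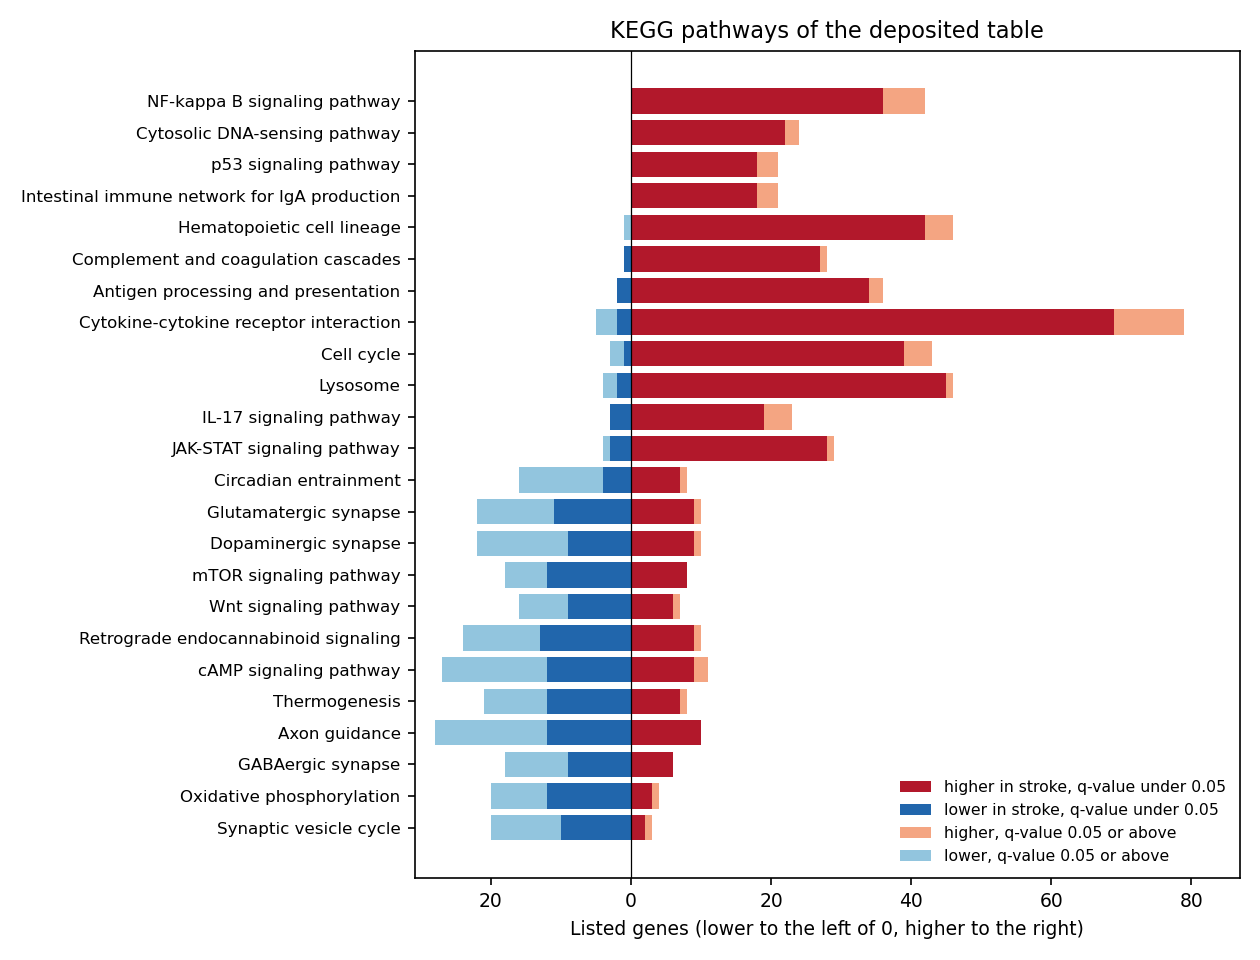
Listed genes of 24 KEGG pathways, the 12 with the highest and the 12 with the lowest share of higher genes among those with at least 20 listed genes and no disease in their name, with higher genes to the right of 0 and lower genes to the left, and dark colours for a q-value under 0.05. NF-kappa B signalling, at the top, has 42 higher and 0 lower genes, and the synaptic vesicle cycle, at the bottom, has 3 higher and 20 lower.

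Other annotations of the table, chosen after values were seen, were counted in the same way. Among 1879 listed genes with a KOG class, which groups proteins by conserved function, 52.7% were higher. In the class of carbohydrate metabolism 47 of 55 were higher, and in cell cycle and chromosome partitioning 60 of 73. In inorganic ion transport 62 of 79 were lower. Among 3396 listed genes with a Gene Ontology term 59.9% were higher. Of 127 listed genes assigned to the synapse by Gene Ontology 113 were lower and 54 fell, and of 104 assigned to the external side of the plasma membrane 93 were higher and 84 rose. Of 46 assigned to the kinetochore 42 were higher and 39 rose, and of 231 assigned to the mitochondrion 110 were higher, with 100 that rose and 63 that fell.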

How the data were processed

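Thalamus RNA of 6 libraries, 3 of stroke and 3 of sham, was measured. TRIzol was used for extraction and a SMARTER mRNA kit for the libraries, per the labels' protocols. The submitters' processing notes name Bowtie2 2.2.3, TopHat2 2.0.12, HTSeq 0.6.0 and GRCm39. Which program tested the groups, and how strand was treated, are not given in the sources used here. The authors deposited group means in TPM, with a log2 ratio, p-value and q-value per gene, per the file headers. The deposited log2 value was the log2 ratio of the deposited means, with a largest difference of 5.35e-11. The number of genes adjusted was recovered from the Benjamini-Hochberg relation of p to q, where 96.4% of genes gave a whole rank (tolerance 0.001) or a tied q-value, and 96 listed genes with a q-value of 1 were left out. On 20 simulated sets of 20000 genes, the same recovery returned the right number in 18. The design planned a new fit where values per library were found, or else use of the authors' q-values, and the second course was taken.

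Listed genes were ranked by log2 ratio and by TPM difference, with means at 0.0001 TPM kept apart. Genes were assigned to 21 marker lists, 31 pathway lists, 2 lists added after values were seen and 90 families by symbol pattern, corrected after the matched symbols were read. The members and lists were chosen with earlier results of these data known. Named genes in each direction were the 10 largest ratios with both means of at least 1 TPM and the 12 smallest q-values outside the marker lists. Clone names were left out of both. The 15 largest differences and the 8 largest means opposite a floor in each direction were also named. Members named within lists, families and pathways are those with small q-values or those that depart from the rest, chosen after their values were seen. Gene models are GENCODE M21 (GRCm38), where 4066 listed identifiers matched, and promoters are RefSeq GRCm38.p6, matched by symbol. Since the authors' build is GRCm39, no other coordinates are given. Alternatives were a q-value of 0.01, a log2 ratio of 2, both means of at least 1 TPM, every listed gene, a pseudocount of 1 TPM and a rescaling to genes outside the table. Python 3.11.15 with pandas 2.3.3, numpy 2.4.6, scipy 1.17.1 and matplotlib 3.10.9 was used. Samples are not stated to come from separate animals, so the p-values reflect only how these samples vary, which may be technical.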

Additional observations from a re-analysis of the deposited data

How the results depend on the processing

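The counts depended on the limits set. The 2012 genes that rose became 1207 at a log2 ratio of at least 2 and 1165 with both means of at least 1 TPM, and the 701 that fell became 257 at a q-value under 0.01, 113 at a log2 ratio of at least 2 and 1602 over every listed gene. With the shift of -0.17 removed, the 701 became 585. The 2012 could not change under that setting, because it raises every log2 ratio and genes outside the table cannot enter. The summed gain of 165684 TPM was 171261 over every listed gene, 87166 without the 10 largest differences and 189820 after rescaling to genes outside the table, and the summed loss of -38399 TPM was -80562, -28577 and -35627 under the same settings. Genes at the lowest value numbered 92 in sham and 8 in stroke, 174 and 29 over every listed gene, and 301 and 27 for means under 0.1 TPM. Sorted by the sham mean, the share of higher genes was 100% under 0.1 TPM, 95.8% from 0.1 to 1, 46.8% from 10 to 100, 28.3% from 100 to 1000 and 20% at 1000 TPM and over. Sorted by the stroke mean, it was 7.41%, 77.3%, 74.5%, 74.0%, 73.9% and 100% from the lowest class to the highest, so the trend over abundance turned with the mean used. Over every listed gene it was 79.0% from 0.1 to 1, 64.3% from 1 to 10, 49.8% from 10 to 100, 37.5% from 100 to 1000 and 65.6% at 1000 TPM and over. Genes outside the marker lists numbered 2592, 3920 over every listed gene and 1580 with all lists and families left out. For the 82 named genes only the size of a ratio could move. Neither a pseudocount of 1 TPM nor removing the shift of -0.17 can turn the sign of a listed ratio. The pseudocount put 6 genes of low level under a log2 ratio of 1 in size, AC163623.2 (-0.82), Gm13561 (-0.35), Gm14633 (-0.89), Gm43064 (-0.23), Pcdha8 (-0.27) and Glb1l3 (-0.56), and left 1541 of the 2012 and 602 of the 701 at 1 or more. Removing the shift put Prkar1b under it (-0.91). No paired analysis was possible because the table holds group means only, and leaving out a replicate was not run for that reason.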

Other observations

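Some genes that rose lay side by side. Among 1797 protein-coding genes that rose and are placed in the GENCODE M21 annotation, 58 runs of at least 3 neighbours held 214 genes. The 634 genes that fell gave 1 run of 3, Doc2g, Ndufv1 and Gstp1 on chromosome 19. A larger set of genes gives more runs by its size alone, and no test of the difference was made. The longest run held 11 genes of the histocompatibility region on chromosome 17, from H2-DMa with 59.0 TPM in stroke and 17.7 TPM in sham (log2 ratio 1.74, q = 1.58e-05) to H2-Eb1 with 117 TPM in stroke and 16.5 TPM in sham (log2 ratio 2.84, q = 3.24e-09), with the immunoproteasome gene Psmb8 and the peptide transporter gene Tap1 among them. A run of 8 on chromosome 1 held receptor genes of the Slam family, with Cd84 at 68.4 TPM in stroke and 1.23 TPM in sham (log2 ratio 5.79, q = 4.32e-19). A run of 4 on chromosome 14 was not of gene copies and held Itm2b, with 1786 TPM in stroke and 589 TPM in sham (log2 ratio 1.60, q = 0.00263), and the cell cycle brake Rb1, with 8.62 TPM in stroke and 3.89 TPM in sham (log2 ratio 1.15, q = 0.0452). These values are those of the authors' deposited table.

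Genes that fell were longer at the median and in the upper part of the range. Lower and upper quartiles of span were 8.86 and 82.5 kb for protein-coding genes that fell, against 9.30 and 42.95 kb for those that rose. The median span of protein-coding genes in GENCODE M21 was 20.3 kb for genes that rose, 26.5 kb for genes that fell and 17.4 kb for all, and 9.07% of genes that rose, 21.8% of genes that fell and 11.4% of all spanned over 100 kb. Outside the protein-coding genes, the table lists 167 lincRNA genes, of which 65 rose and 19 fell. It also lists 131 antisense genes, of which 39 rose and 18 fell, and 90 processed pseudogenes, of which 30 rose and 3 fell. Of all 4071 listed genes 2012 rose and 701 fell, which are larger shares than in each of these classes. Mir142b, which lies at a microRNA locus of blood cells, had 22.3 TPM in stroke and 0.825 TPM in sham (log2 ratio 4.76, q = 1.25e-05) in the authors' deposited table. Homeobox genes of the posterior body axis were seen at low levels, with Hoxb9 at 0.570 TPM in stroke and 0.0322 TPM in sham (log2 ratio 4.14, q = 0.00872) and Hoxb4 at 0.612 TPM in stroke and at the lowest value in sham (q = 5.18e-06).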
